A study of Homo sapiens with 18 samples.

Results

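The restriction factor genes MX1, MX2, BST2, ZC3HAV1, RSAD2, CMPK2, SAMD9, SAMD9L, RTP4 and KLHDC7B were followed through RNA-seq of a breast cancer cell line treated with olaparib, an inhibitor of the DNA repair enzyme PARP. The 10 genes were taken by name, by matching the Ensembl identifiers of the count matrix to gene symbols, and all 10 were found among its 35044 genes. Restriction factor is the name of the list, and an antiviral action of the 10 genes was not measured. HCC1937 is a triple-negative breast cancer cell line that carries a truncating BRCA1 mutation. The libraries labelled EV came from HCC1937 with an empty vector and those labelled OE-BRCA1 (OE) from HCC1937 with wild type BRCA1 added. Cells of each line were sampled at 0 h, which the study describes as without drug, and after 12 h and 24 h of olaparib, with 3 libraries in each of the 6 conditions and 18 libraries in all. The sample labels give the genotype of the EV libraries as WT and the treatment of all 18 libraries, 0 h included, as olaparib, so the groups were taken from the sample titles. The sources used here do not say whether either line is 1 clone or whether the 3 libraries of a condition came from separate cultures, so the p-values measure the spread between these libraries, which may be technical.

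Restriction factors are proteins that cells make to stop viruses at single steps of infection, and most of their genes are switched on by interferon. Interferon binds its receptor, the receptor kinases phosphorylate transcription factors of the STAT family, and a complex of these with IRF9 binds a DNA element, the interferon-stimulated response element (ISRE), near the start of the target genes. Pairs of STAT proteins without IRF9 bind another element, the gamma-activated site (GAS). Cancer cells can start the same programme without a virus when RNA or DNA of their own reaches the cytosolic sensors.

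The bases upstream of the annotated starts are shown for 5 of the 10 genes, because they set genes that moved in different ways beside each other. RTP4, SAMD9, RSAD2 and SAMD9L rose after olaparib in the libraries labelled OE, whereas the change of BST2 did not pass the test. Each run is the 250 bases before 1 RefSeq start on the GRCh38.p14 build, 5′ to 3′ on the strand of the gene, with matches to the ISRE core (GAAANNGAAA, either strand) or to GAS (TTCNNNGAA, which reads the same on both strands) in capitals. The RTP4 run is chr3:187368135-187368384 on the plus strand, the SAMD9 run chr7:93117980-93118229 on the minus strand, the RSAD2 run chr2:6877527-6877776 on the plus strand, the BST2 run chr19:17405631-17405880 on the minus strand and the SAMD9L run chr7:93148386-93148635 on the minus strand.
RTP4: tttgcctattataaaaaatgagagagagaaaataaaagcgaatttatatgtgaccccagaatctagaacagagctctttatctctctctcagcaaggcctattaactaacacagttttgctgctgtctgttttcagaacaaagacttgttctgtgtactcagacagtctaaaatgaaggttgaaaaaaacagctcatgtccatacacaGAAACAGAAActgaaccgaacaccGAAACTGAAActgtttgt
SAMD9: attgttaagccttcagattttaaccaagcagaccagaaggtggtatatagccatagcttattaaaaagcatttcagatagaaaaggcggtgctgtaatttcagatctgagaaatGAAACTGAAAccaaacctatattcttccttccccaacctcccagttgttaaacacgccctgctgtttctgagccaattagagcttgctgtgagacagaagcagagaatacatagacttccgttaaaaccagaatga
RSAD2: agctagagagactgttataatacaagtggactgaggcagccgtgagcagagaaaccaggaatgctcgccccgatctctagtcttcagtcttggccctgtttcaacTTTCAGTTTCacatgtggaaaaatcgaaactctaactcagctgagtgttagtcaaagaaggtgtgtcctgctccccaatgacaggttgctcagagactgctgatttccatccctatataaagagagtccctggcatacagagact
BST2: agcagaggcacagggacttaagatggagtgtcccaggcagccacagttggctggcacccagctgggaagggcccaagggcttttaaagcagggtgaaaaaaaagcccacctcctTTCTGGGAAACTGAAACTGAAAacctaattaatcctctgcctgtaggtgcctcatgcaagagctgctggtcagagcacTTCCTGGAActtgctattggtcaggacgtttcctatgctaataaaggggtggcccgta
SAMD9L: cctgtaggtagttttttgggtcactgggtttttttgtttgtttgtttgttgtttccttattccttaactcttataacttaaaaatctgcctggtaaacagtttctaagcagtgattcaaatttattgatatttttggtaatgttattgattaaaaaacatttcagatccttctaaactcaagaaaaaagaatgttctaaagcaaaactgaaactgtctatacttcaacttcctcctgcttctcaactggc

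RefSeq windows of 300 bases, with 250 bases before a start and 50 bases after it, were at hand for 9 of the 10 genes, 14 windows in all. The ISRE core was found in at least 1 window of 5 of the 9 genes, which were MX1, RSAD2, BST2, SAMD9 and RTP4. Of all 27305 genes with a window, 4.38% held it in at least 1. The RTP4 window held 2 matches, starting 42 and 18 bases before the start, and the BST2 window held 2 that share their inner GAAA, starting 130 and 124 bases before it. The SAMD9 match began 136 bases upstream, and in RSAD2 the match lay on the opposite strand, 145 bases upstream of the second of its 2 annotated starts. MX1 has 3 annotated starts, and a match began 12 bases after the first and 196 bases before the third. GAS was found for MX1, BST2 and ZC3HAV1, 3 of the 9 genes, against 9.38% of all genes with a window. In BST2 the first GAS match, 136 bases upstream, shares bases with the ISRE core match beside it, as does the GAS match of the third MX1 start. The windows of CMPK2, SAMD9L and KLHDC7B held neither of the 2 elements. A match is a run of letters in a window and says nothing of binding, and the lack of a match says only that these letters are not there.

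**Figure D1:**
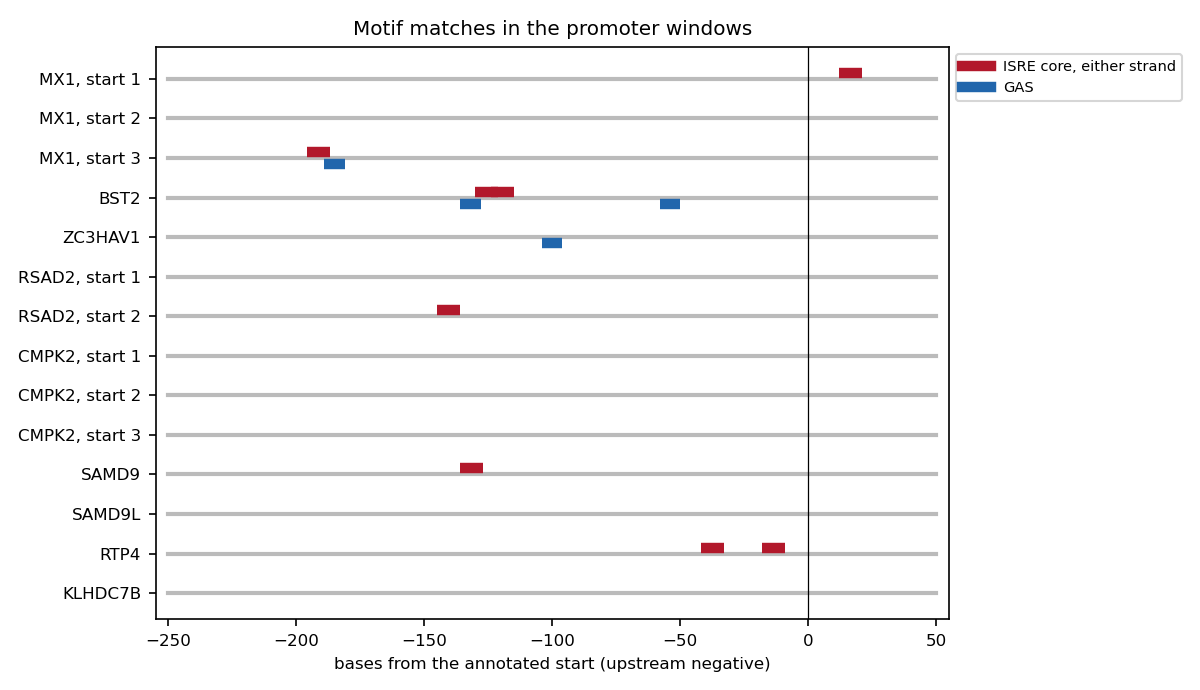
Positions of the matches to the ISRE core (red) and to GAS (blue) in the 14 promoter windows of 9 genes; the x axis gives bases from the annotated start and each grey line is 1 window. RTP4 holds its 2 ISRE core matches within 42 bases of the start, while the ISRE core matches of SAMD9, RSAD2 and BST2 begin between 124 and 145 bases upstream.

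Total counts ran from 15081973 to 17571922 per library. Levels are given as CPM, counts per 1000000 counts of a library, with library sizes scaled by edgeR's TMM method. Differences are log2 fold changes with their standard errors (SE) from edgeR's quasi-likelihood test over 18335 genes, and a gene was called when its p, adjusted by the Benjamini-Hochberg method, was under 0.05. The smallest p that exact permutation (two-sided) can give for 3 libraries against 3 is 0.1, so the tests rest on the spread shared across genes. BRCA1, the gene added in OE, was at 138 ± 24.0 CPM (SD, n = 3) in OE and 118 ± 7.70 CPM in EV at 0 h and was not called (adjusted p = 0.0654), nor at 12 h (adjusted p = 0.197), whereas at 24 h it was higher in OE (log2 fold change 0.77 ± 0.11, SE, adjusted p = 3.17e-06). OE and EV are therefore used as the names of labels throughout.

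Several defining epithelial markers were nearly absent from the EV libraries, which are labelled breast cancer cells as OE is. Of 8 epithelial and basal keratinocyte markers, EPCAM, CDH1, KRT19, KRT5 and KRT14 had a mean under 1 CPM over the EV libraries, with 0 or 1 EPCAM counts in each EV library at 0 h, while KRT8, KRT18 and KRT17 were above it. All 8 were above 1 CPM in OE, and KRT5 was at 1550 ± 244 CPM there at 0 h. The summed level of the 8 markers was 2424 to 3171 CPM in EV and 6309 to 10277 CPM in OE. Of 10 markers of leucocytes, endothelium and fibroblasts in the matrix, 3 reached 1 CPM in EV, PECAM1 and COL1A1 among them, and 4 did in OE, namely PTPRC, CD14, PECAM1 and COL1A1, with sums of 93.0 to 149 CPM and 51.2 to 119 CPM. The sums were made up of different genes. At 0 h COL1A1 had a mean of 98.6 CPM in EV and 7.45 CPM in OE, and CD14 of 0.619 and 40.6 CPM. Pearson's r of log2 CPM between libraries was 0.976 to 0.991 within a line and 0.728 to 0.753 between the lines. BRCA1 status and the identity of the 2 cell populations cannot be told apart in any comparison of OE with EV, and their parts in the values below were not tested.

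In OE, 7 of the 10 genes rose by 12 h and 8 by 24 h. RSAD2, KLHDC7B and CMPK2 rose most at 12 h, the levels of MX1, RTP4 and SAMD9L more than doubled, and SAMD9 rose less. MX2 and BST2 were not called at either time, and ZC3HAV1 was called at 24 h only. Of all genes tested, 1.7% were called higher and 0.605% lower at 12 h, and 4.71% and 3.55% at 24 h. The median over the 10 genes was a log2 fold change of 1.21 after 12 h and 1.32 after 24 h, beside 0.0037 and 0.024 for all genes tested. Few markers of other cells were called in OE. Of 7 markers of leucocytes, endothelium and fibroblasts tested, CD14 was called higher at 12 h and at 24 h (log2 fold change 0.94 at each) and PECAM1 at 24 h (0.92). The rest were not called, and at 12 h PTPRC (-0.23) and COL3A1 (-1.45) went down. The summed level of the 10 in the matrix went from 51.2 to 69.1 CPM at 0 h to 98.4 to 113 CPM at 12 h and 101.1 to 119 CPM at 24 h. Within it, CD14 had means of 40.6 CPM at 0 h, 77.7 CPM at 12 h and 77.9 CPM at 24 h. Of the defining leucocyte markers, PTPRC had 7 to 36 counts per OE library and CD68 0 to 3. Of the 8 epithelial markers none was called at 12 h, and KRT18 (-0.56), KRT8 (-0.50), KRT5 (-0.47) and CDH1 (-0.35) were lower at 24 h. The part of either marker list in the changes of the 10 genes was not tested. Without replicate 1 of OE at 0 h, which stood apart from the other 2 libraries of its group for AT-rich genes, 8 were called at each time.

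**Figure D2:**
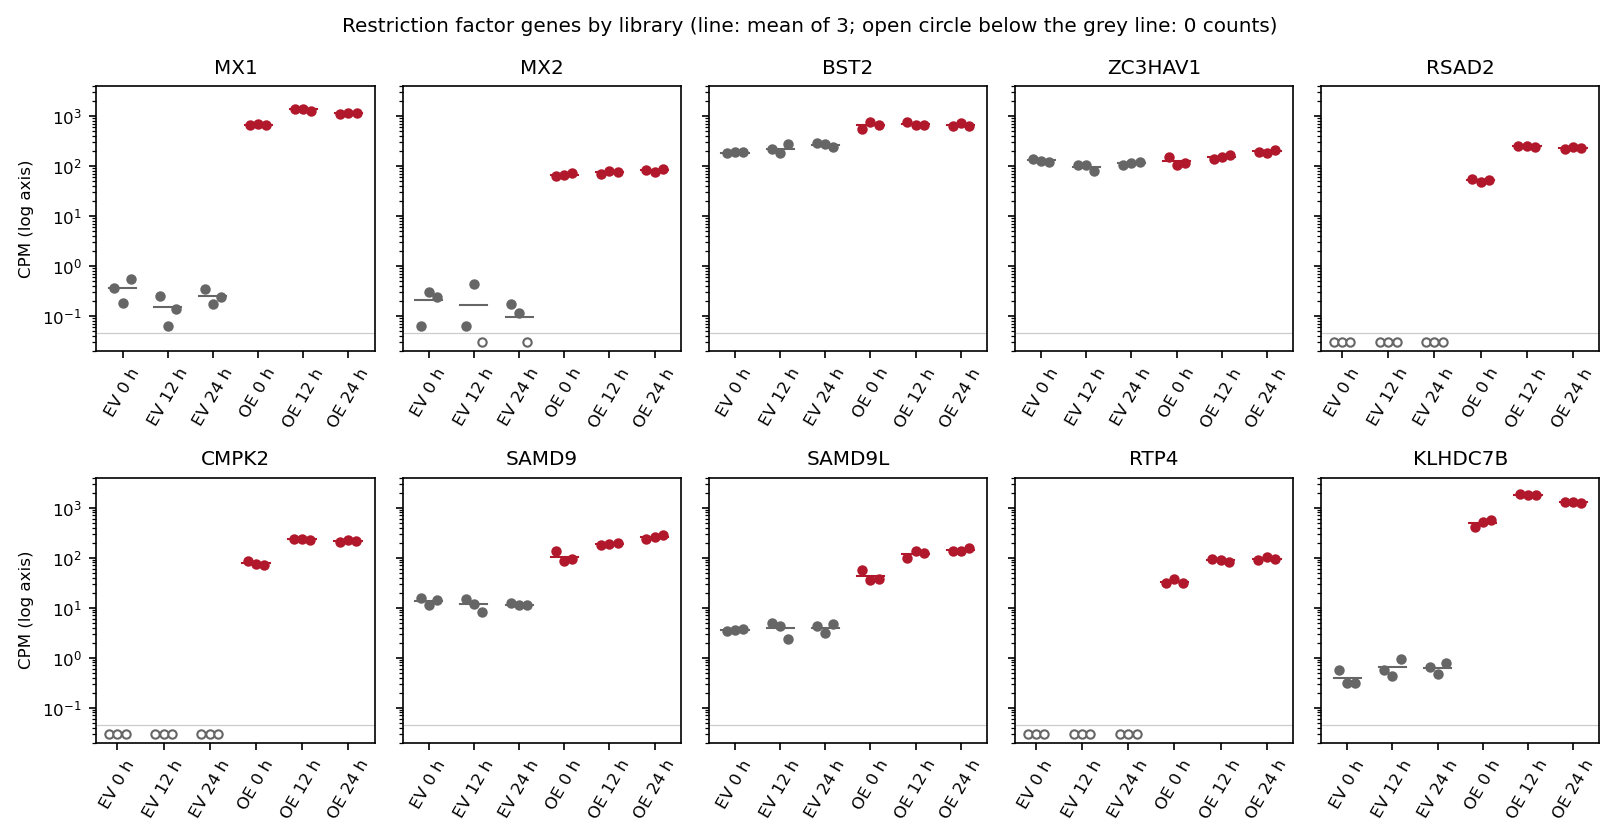
CPM of the 10 genes in each of the 18 libraries (log axis), by line and time; points are libraries, lines the means of 3, and open circles under the grey line libraries with 0 counts. RSAD2, CMPK2 and RTP4 had no count in any of the 9 EV libraries, while ZC3HAV1 lay between 81.5 and 211 CPM in all 18.

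MX1 and MX2 encode dynamin-like GTPases. MX1 acts in the cytoplasm against influenza and many other viruses, and MX2 sits at the nuclear envelope and blocks the entry of HIV-1 into the nucleus. They lie side by side on chromosome 21 (MX2 at chr21:41361943-41409390, MX1 at chr21:41420304-41459214, GRCh38). In OE, MX1 was at 652, 699 and 673 CPM at 0 h, at 1411, 1384 and 1289.9 CPM at 12 h and at 1121, 1139.8 and 1161 CPM at 24 h. No library at 12 h or 24 h overlapped those at 0 h, and the 12 h libraries were the highest. The log2 fold change was 1.01 ± 0.10 at 12 h (SE, edgeR adjusted p = 1.94e-06) and 0.76 ± 0.10 at 24 h (adjusted p = 5.15e-05). Its neighbour MX2 was at 63.7, 65.7 and 73.4 CPM at 0 h, at 70.8, 80.7 and 77.7 CPM at 12 h and at 84.9, 77.9 and 87.4 CPM at 24 h. The 12 h values overlapped those at 0 h, while all 3 libraries at 24 h lay above them. Neither change was called, with log2 fold changes of 0.18 at 12 h (95% interval -0.15 to 0.50) and 0.30 at 24 h (-0.023 to 0.63). The number of MX1 counts per MX2 count within a library went from 10.01 ± 0.761 (SD, n = 3) at 0 h to 17.9 ± 1.79 at 12 h and 13.7 ± 0.801 at 24 h. Of the 8794 different stretches of 31 bases in MX1 transcripts, 38 also occur in MX2 transcripts, so few reads could be placed on the wrong gene of the pair.

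BST2, or tetherin, holds newly budded enveloped virions on the cell surface. BST2 (chr19:17402939-17405648) was at 554, 771 and 649.8 CPM in OE at 0 h, at 770.3, 667 and 657 CPM at 12 h and at 643, 719 and 633 CPM at 24 h. All 9 libraries lay in the same range, and the log2 fold changes of 0.085 at 12 h (95% interval -0.17 to 0.34) and 0.015 at 24 h (-0.24 to 0.27) were not called. ZC3HAV1, or ZAP, binds CpG-rich RNA and brings it to decay enzymes. Its transcripts (chr7:139043520-139109719) were at 149, 106 and 117 CPM at 0 h, at 140.3, 155 and 167 CPM at 12 h and at 193, 187 and 211 CPM at 24 h. The first library at 0 h overlapped those at 12 h, and all 3 libraries at 24 h were higher than any before. The change was not called at 12 h (log2 fold change 0.31 ± 0.12, SE, edgeR adjusted p = 0.275) and was called at 24 h (0.67 ± 0.12, adjusted p = 0.00159). At 12 h the call depended on the settings, with an adjusted p of 0.0304 under an offset for GC content and length and of 0.0426 without replicate 1 of OE at 0 h.

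RSAD2 encodes viperin, a radical SAM enzyme that turns CTP into a chain terminator of viral polymerases, and CMPK2 a mitochondrial kinase of CMP and UMP. The genes lie head to head on chromosome 2, RSAD2 at chr2:6865806-6898239 on the plus strand and CMPK2 at chr2:6840570-6866635 on the minus strand, and their bodies overlap by 830 bases. RSAD2 was at 56.5, 49.2 and 53.8 CPM in OE at 0 h, at 252, 258 and 239.9 CPM at 12 h and at 216, 246 and 235 CPM at 24 h. CMPK2 was at 84.7, 75.7 and 70.7 CPM at 0 h, at 234, 239 and 229 CPM at 12 h and at 208, 223 and 216 CPM at 24 h. In both genes the treated libraries stood clear of those at 0 h, and the values at 12 h and 24 h were close. RSAD2 had log2 fold changes of 2.23 ± 0.10 at 12 h (SE, edgeR adjusted p = 5.16e-09) and 2.13 ± 0.10 at 24 h (adjusted p = 5.63e-09), the largest changes of the 10 genes at each time. For CMPK2 the log2 fold changes were 1.60 ± 0.10 (adjusted p = 1.58e-07) and 1.49 ± 0.10 (adjusted p = 2.20e-07). The RSAD2 counts per CMPK2 count rose from 0.693 ± 0.0591 (SD, n = 3) at 0 h to 1.07 ± 0.0180 at 12 h and 1.08 ± 0.0350 at 24 h, with no overlap between 0 h and the later libraries. Whether the counting used strand is not given in the sources used here, so reads of the overlap may be split between the pair, although no stretch of 31 bases was shared by their spliced transcripts in GENCODE 29 on either strand.

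SAMD9 and SAMD9L are large cytoplasmic proteins that block poxviruses and act on translation. They lie side by side on the minus strand of chromosome 7, SAMD9 at chr7:93099513-93118023 and SAMD9L at chr7:93130055-93148369. SAMD9 was at 136, 86.4 and 91.8 CPM in OE at 0 h, at 175, 191 and 198 CPM at 12 h and at 233, 253 and 278 CPM at 24 h. SAMD9L was at 57.6, 35.7 and 37.8 CPM at 0 h, at 97.1, 135 and 124 CPM at 12 h and at 138, 136 and 156 CPM at 24 h. No treated library overlapped those at 0 h in either gene, and replicate 1 at 0 h was the highest of its group in both. That library also had the lowest GC trend of its group: Spearman's rho between a gene's GC content and its deviation from the mean over libraries was -0.589 in it, against 0.298 and 0.556 in the others. SAMD9 and SAMD9L have the lowest GC contents of the 10 genes, at 36.1% and 38.7%. The log2 fold changes of SAMD9 were 0.84 ± 0.16 at 12 h (SE, edgeR adjusted p = 0.00358) and 1.28 ± 0.16 at 24 h (adjusted p = 2.65e-05), and without that library 1.07 and 1.51. Those of SAMD9L were 1.44 ± 0.18 (adjusted p = 5.71e-05) and 1.71 ± 0.19 (adjusted p = 4.11e-06), and without it 1.69 and 1.96. With the GC and length offset they were 0.89 and 1.07 for SAMD9 and 1.48 and 1.54 for SAMD9L, called at both times. The SAMD9L counts per SAMD9 count were 0.416 ± 0.00557 (SD, n = 3) at 0 h, 0.629 ± 0.0759 at 12 h and 0.563 ± 0.0271 at 24 h, and replicate 1 did not stand apart in this ratio at 0 h.

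RTP4 is a small transmembrane protein, first known as a carrier of taste and opioid receptors to the cell surface, that restricts flaviviruses. RTP4 (chr3:187368332-187372076) was at 31.2, 37.2 and 30.9 CPM in OE at 0 h, at 92.8, 88.9 and 81.7 CPM at 12 h and at 87.8, 102 and 94.4 CPM at 24 h. The treated libraries lay above all of those at 0 h, with log2 fold changes of 1.41 ± 0.12 (SE, edgeR adjusted p = 4.86e-06) and 1.52 ± 0.12 (adjusted p = 1.75e-06). KLHDC7B carries kelch repeats and lies at chr22:50545891-50551023. Its transcripts were at 415, 520.1 and 554 CPM at 0 h, at 1886, 1768 and 1798 CPM at 12 h and at 1319.8, 1267 and 1239.8 CPM at 24 h. The 3 times did not overlap, with the highest libraries at 12 h. The log2 fold changes were 1.87 ± 0.12 (adjusted p = 2.14e-09) and then 1.36 ± 0.11 (adjusted p = 1.14e-07).

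Between 12 h and 24 h of olaparib in OE, KLHDC7B fell by 0.51 on the log2 scale (SE 0.11, edgeR adjusted p = 0.0211) and the other 9 genes were not called, beside 0.862% of all genes called lower. The KLHDC7B call was lost in each of the 6 fits that left out 1 library, where the log2 fold change ran from -0.53 to -0.49. Over all fits the KLHDC7B change ran from -0.55 to -0.25. MX1, RSAD2 and CMPK2 had mean levels at 24 h of 0.837, 0.928 and 0.922 times those at 12 h, and SAMD9, SAMD9L and ZC3HAV1 of 1.36, 1.21 and 1.28 times. In a fit of these 2 groups alone, MX1 was lower (log2 fold change -0.26, adjusted p = 0.00794) and SAMD9 (0.43, adjusted p = 0.00161) and ZC3HAV1 (0.35, adjusted p = 0.00544) were higher at 24 h. Over all fits MX1 ran from -0.29 to -0.21, SAMD9 from 0.18 to 0.50, SAMD9L from 0.063 to 0.38 and ZC3HAV1 from 0.28 to 0.42. In the fits without 1 library, SAMD9 ran from 0.37 to 0.50 and SAMD9L from 0.14 to 0.38. Spearman's rho of the GC trend was 0.182 to 0.555 in the OE libraries at 12 h and -0.453 to -0.295 at 24 h. KLHDC7B has the highest GC content of the 10 genes, at 65.6%, and SAMD9 and SAMD9L the lowest, at 36.1% and 38.7%. The part of GC content in these changes was not tested. The summed level of the 10 genes was 2333 ± 124 CPM (SD, n = 3) before olaparib, 4986 ± 135 CPM after 12 h and 4302 ± 54.4 CPM after 24 h. Within it, KLHDC7B had means of 496, 1817 and 1275 CPM.

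**Figure D3:**
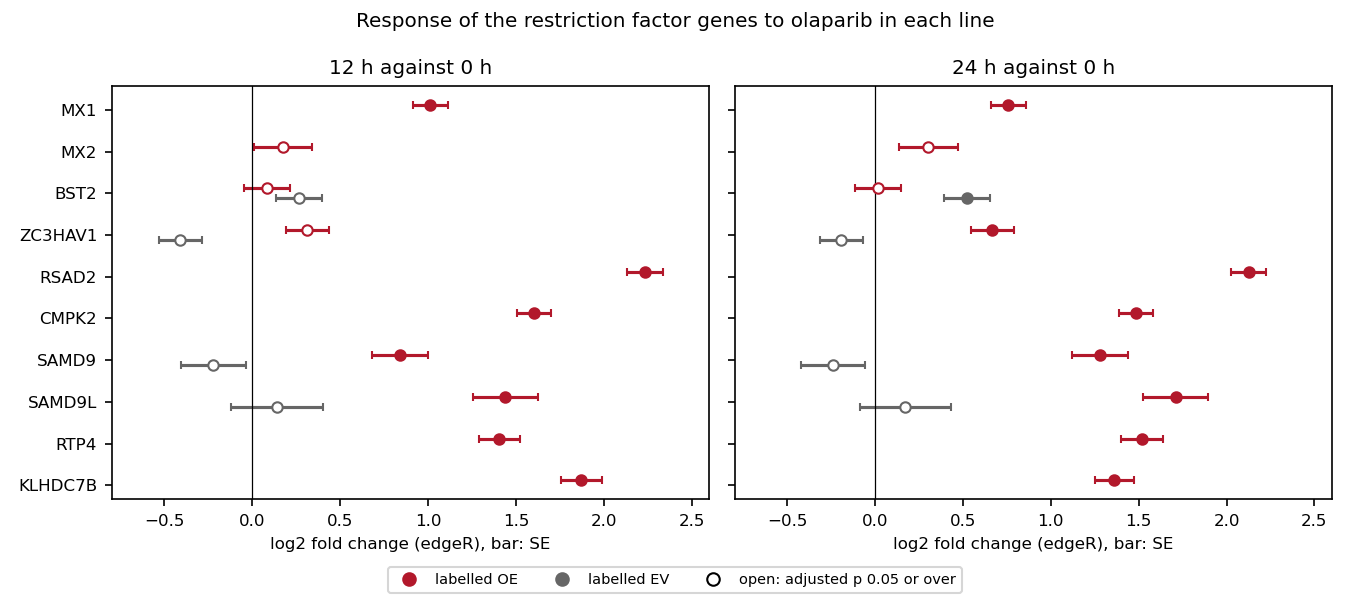
Log2 fold changes against 0 h at 12 h (left) and 24 h (right) in the libraries labelled OE (red) and EV (grey), with SE; filled points have an adjusted p under 0.05, and EV is drawn for the 4 genes with at least 34 counts in every EV library. RSAD2 lies farthest to the right in OE at both times, and BST2 at 24 h is the only filled EV point.

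In EV, 6 of the 10 genes were at or near 0 at all 3 times. RSAD2, CMPK2 and RTP4 had 0 counts in all 9 EV libraries, which allows up to 3 counts over the 3 libraries of a group, an allowance for counting error only. MX1 had 1 to 9 counts per library, MX2 0 to 7 and KLHDC7B 5 to 14. No change in EV was read for these 6 genes. Of the other 4, BST2, SAMD9, SAMD9L and ZC3HAV1, which had at least 34 counts in every EV library, none was called at 12 h (edgeR quasi-likelihood test, 1 at an unadjusted p under 0.05), nor by DESeq2, beside 0.0436% of all genes called in either direction. At 24 h BST2 was called higher, 1 of 4 genes, beside 8.62% of all genes called higher and 5.12% lower. None of the 4 was called between 12 h and 24 h (0 at an unadjusted p under 0.05, 0 by DESeq2), beside 0.18% of all genes.

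BST2 in EV was at 179, 189 and 192 CPM at 0 h, at 216, 183 and 274 CPM at 12 h and at 289, 273 and 241 CPM at 24 h. All 3 libraries at 24 h lay above those at 0 h, with a log2 fold change of 0.52 ± 0.13 (SE, edgeR adjusted p = 0.0150). The call was lost with the GC and length offset (0.22, adjusted p = 0.0640) and without any 1 of 4 libraries, replicates 1 and 3 at 0 h and replicates 1 and 2 at 24 h, where the log2 fold change over all left-out libraries ran from 0.47 to 0.59. BST2 has a GC content of 56.9%, and Spearman's rho of the GC trend was -0.592, -0.232 and -0.443 in the EV libraries at 0 h and 0.285, 0.621 and 0.433 at 24 h. SAMD9 in EV was at 15.4, 11.5 and 14.0 CPM at 0 h, at 14.6, 12.1 and 8.35 CPM at 12 h and at 12.2, 11.2 and 11.2 CPM at 24 h. SAMD9L was between 2.31 and 4.99 CPM over the 9 EV libraries, and its 3 times overlapped. ZC3HAV1 in EV was at 140.3, 128 and 121 CPM at 0 h, at 107, 104 and 81.5 CPM at 12 h and at 105, 116 and 119 CPM at 24 h, where every treated library was below those at 0 h without a call (adjusted p = 0.156 after 12 h and 0.302 after 24 h).

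Compared at the same time, OE was higher than EV for 9 of the 10 genes at 0 h and for all 10 at 12 h and at 24 h. Over all genes, 39.4% were called higher in OE at 0 h, 38.8% at 12 h and 39.9% at 24 h. Fewer cells of a kind and less RNA per cell cannot be told apart in these bulk libraries. The size of the difference separated the genes into 3 groups. Against 3 counts over the 3 EV libraries, RSAD2 was at least 859-fold higher in OE at 0 h, CMPK2 at least 1246-fold and RTP4 at least 535-fold. MX1, with 32623 counts in OE and 18 in EV, differed by 1818-fold at 0 h (95% interval of the counts 1150 to 3067), KLHDC7B by 1265-fold (810.1 to 2102) and MX2 by 328-fold (178 to 684), where the intervals cover counting error only. SAMD9L, SAMD9 and BST2 differed by 12.3-fold (10.6 to 14.5), 7.70-fold (7.10 to 8.36) and 3.53-fold (3.45 to 3.61). These intervals too cover counting error only and leave out the spread between libraries. ZC3HAV1 did not differ at 0 h beyond the spread, with a log2 fold change of -0.061 ± 0.12 (SE, edgeR adjusted p = 0.664), and was higher in OE at 12 h (0.66 ± 0.12, adjusted p = 6.61e-05) and 24 h (0.80 ± 0.12, adjusted p = 6.25e-06). In all 9 EV libraries the 6 lowest genes were near 0 and so were EPCAM and KRT5, so the EV libraries cannot set these observations apart.

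The responses themselves were compared between the lines for the 4 genes with at least 34 counts in every EV library. At 24 h the response was larger in OE for SAMD9, SAMD9L and ZC3HAV1, 3 of 4 genes, beside 8.16% of all genes called higher. The difference of the log2 fold changes, OE minus EV, was 1.52 ± 0.24 for SAMD9 (SE, edgeR adjusted p = 0.000602), 1.54 ± 0.32 for SAMD9L (adjusted p = 0.00327) and 0.86 ± 0.17 for ZC3HAV1 (adjusted p = 0.00287). The 3 were called in all 12 fits that left out 1 library, where the lowest differences were 1.40, 1.38 and 0.76. Over all fits the lowest were 0.96 for SAMD9, 1.08 for SAMD9L and 0.60 for ZC3HAV1. The 3 were also called in all 8 other fits, the GC and length offset among them. In EV, Spearman's rho of the GC trend was -0.592 to -0.232 at 0 h and 0.285 to 0.621 at 24 h. In OE it was -0.589 to 0.556 and -0.453 to -0.295. SAMD9 and SAMD9L have the lowest GC contents of the 10 genes, at 36.1% and 38.7%, and BST2 has 56.9%. The part of GC content in these differences was not tested. The response of BST2 was smaller in OE at 24 h, by -0.51 ± 0.18, which was not called (adjusted p = 0.0586). It was called by DESeq2 (adjusted p = 0.0385), with no filter (0.00443), with at least 10 counts in every library (0.0450), with the compared groups alone (0.0290) and without replicate 3 of EV at 24 h (0.0475) or replicate 1 of OE at 0 h (0.0118). These were 4 of 8 other fits and 2 of 12 fits without 1 library. Over all fits the BST2 difference ran from -0.61 to -0.098, and over those without 1 library from -0.61 to -0.38. At 12 h none of the 4 was called, beside 0.376% of all genes called higher. SAMD9, SAMD9L and ZC3HAV1 had differences of 1.06, 1.30 and 0.72 at 12 h (adjusted p = 0.0528, 0.0698 and 0.0623; all 3 and no other of the 4 at an unadjusted p under 0.05), and these 3 were called with the GC and length offset, by DESeq2, with no filter and without replicate 1 of OE at 0 h or of EV at 12 h. The fit also gave a 12 h difference for MX1 of 2.27 ± 0.48 (adjusted p = 0.0303), but MX1 passed the filter on low counts through OE, and the value rests on 18 counts in EV at 0 h and 7 at 12 h. That call was lost with the compared groups alone and without any 1 of 5 libraries, which were replicates 1 and 3 of EV at 0 h, replicates 2 and 3 of EV at 12 h and replicate 2 of OE at 12 h, and nothing is read from it. For RSAD2, CMPK2 and RTP4 a difference of responses could not be fitted, since EV held no count.

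Per kilobase of exon (RPKM, with exon lengths from GENCODE 29), the 10 genes of OE at 0 h ran from BST2 at 588 to MX2 at 5.18. KLHDC7B (96.7) and MX1 (78.3) followed BST2, and their ranges over libraries overlapped. RTP4 (21.3) came next, and then CMPK2 (17.9), SAMD9 (15.3) and ZC3HAV1 (15.1), neighbours whose ranges overlapped. RSAD2 (11.0), SAMD9L (6.13) and MX2 closed the order, the last 2 with overlapping ranges. At 12 h BST2 was still first at 624, followed by KLHDC7B at 354 and MX1 at 158, with no overlap between them. RTP4 (56.5), CMPK2 (54.3) and RSAD2 (51.7) then stood level with overlapping ranges, ahead of SAMD9 (27.4), ZC3HAV1 (18.7) and SAMD9L (16.6), and MX2 was last at 5.86. The exon length of MX2 pools 13047 bases of annotated exons, more than a single transcript would hold, which lowers its value on this scale.

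The genes that carry the interferon signal rose in part. Of 22 genes tested, from the interferons and receptors to STAT, IRF and sensor genes, 9 were called higher and none lower in OE at 12 h, and 11 and none at 24 h, with median log2 fold changes of 0.63 and 0.66. The largest at 12 h were IFNL1 (2.67 ± 0.21, SE), a type III interferon, IFNL3 (1.93 ± 0.37), RIGI (1.38 ± 0.26), a sensor of viral RNA, and STAT2 (1.33 ± 0.084). IFNL1 had 26 to 38 counts per OE library at 0 h and 184 to 275 in the treated ones, and 0 in all EV libraries. IRF9, the partner of the STATs, was given 2 to 29 counts per library over both lines and was not called in OE at 12 h or 24 h. The annotation and the use of strand in the counting are not given in the sources used here. These counts therefore do not show that IRF9 was little expressed. IRF7, with 0 to 11 counts per library, was too low to be tested. IRF3, the factor that the sensors activate first, was not called in OE (log2 fold change -0.079 at 12 h and -0.31 at 24 h) and was called higher in EV at 24 h (0.50 ± 0.16, edgeR adjusted p = 0.0488). In EV at 24 h, 3 of the 22 were higher, DHX58, IRF3 and TYK2, and JAK1 was lower. Of all genes tested, 8.62% were called higher and 5.12% lower there. In OE the shares over all genes were 1.7% higher and 0.605% lower at 12 h, and 4.71% and 3.55% at 24 h.

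Of 40 other antiviral effectors, 33 were called higher and none lower in OE at 12 h, and 34 and none at 24 h, with median log2 fold changes of 0.86 and 1.02. IFIT2 (1.99 ± 0.11, SE), TRIM22 (1.75 ± 0.16), IFIT3 (1.75 ± 0.12) and APOBEC3G (1.66 ± 0.37) had the largest at 12 h. In EV none was called at 12 h, and 11 were higher and 2 lower at 24 h, led by IFI6 (1.99 ± 0.33), OASL (1.56 ± 0.12), PARP10 (1.30 ± 0.23) and IFIT2 (1.16 ± 0.13), so EV gave calls in this list at 24 h while RSAD2, CMPK2 and RTP4 had no count there. The shares over all genes in EV were 0.0436% called at 12 h, and 8.62% higher and 5.12% lower at 24 h. In OE they were 1.7% higher and 0.605% lower at 12 h, and 4.71% and 3.55% at 24 h. The ISRE core was found in the windows of 25 of the 32 effectors that had one, beside 4.38% of all genes with a window. For the interferon signalling genes it was found in 5 of 17.

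Genes listed as relatives of the 10 by name or family, such as the dynamins, CMPK1 and the SAMD8 and SAMD4 genes, had median changes near 0. Of 13 tested, PARP12, a relative of ZC3HAV1, was called higher in OE at 12 h (0.60 ± 0.086, SE), and at 24 h PARP12 and TIPARP were higher and ZC3HAV1L and SAMD4A lower, with median log2 fold changes of -0.088 and 0.014. Of 17 genes whose products work with those of the 10 genes, TRIM25 (0.66 ± 0.092), the ubiquitin ligase that ZC3HAV1 needs and that also counts among the effectors, and N4BP1 (0.32 ± 0.080) were higher at 12 h. At 24 h N4BP1 was higher and DTYMK and IRAK1 were lower, with medians of -0.033 at 12 h and 0.0080 at 24 h. For both lists, the shares over all genes in OE were 1.7% higher and 0.605% lower at 12 h, and 4.71% and 3.55% at 24 h. KHNYN, the nuclease partner of ZC3HAV1, and FDPS, a partner of viperin, were not called in OE.

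**Figure D4:**
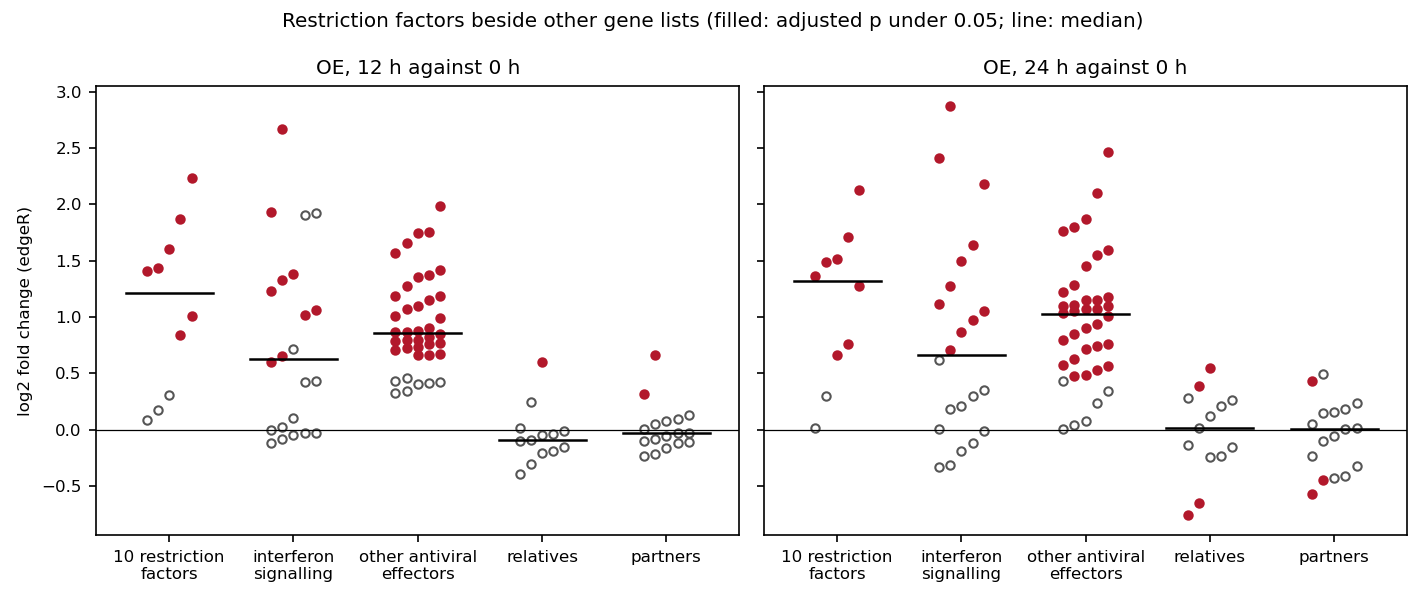
Log2 fold changes against 0 h in OE at 12 h (left) and 24 h (right) for the 10 restriction factors, 22 interferon signalling genes, 40 other antiviral effectors, 13 relatives and 17 partners; filled points have an adjusted p under 0.05 and lines are medians. The medians of the restriction factors, 1.21 and 1.32, lie above those of the relatives and partners, which are near 0.

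Over the 9 OE libraries, which share the treatment and the line, the genes outside the 10 whose log2 CPM followed their mean standardised profile most closely, among 14717 candidates, were APOBEC3F (Pearson's r = 0.998), SAMHD1 (0.996), TRANK1 (0.995), STAT2 (0.992) and OAS1 (0.992). Within the 10, r with the mean of the others was highest for RTP4 (0.990), RSAD2 (0.989) and CMPK2 (0.983) and lowest for MX2 (0.744), ZC3HAV1 (0.733) and BST2 (0.0800). These values describe 3 conditions with 3 libraries each.

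Among the 41 tested genes within 100 kb of one of the 10, 5 were called higher in OE at 12 h and none lower, beside 1.7% and 0.605% of all genes, and 6 were higher and 3 lower at 24 h, beside 4.71% and 3.55%. NRIR, a long non-coding RNA that begins 106 bases beyond the end of CMPK2 on the same strand, had a log2 fold change of 1.87 (edgeR adjusted p = 0.000553) and no count in EV. The other 4 lie near KLHDC7B and are ODF3B (1.33), KLHDC7B-DT (1.26), TYMP (0.96) and ADM2 (0.49). BISPR, a non-coding RNA that starts 38 bases from BST2 on the opposite strand, was not called at 12 h (0.39, adjusted p = 0.270) and was called at 24 h (0.65, adjusted p = 0.0103), a time at which BST2 itself was not. NRIR (2.17), KLHDC7B-DT (1.72) and ODF3B (0.89) were also called at 24 h, with PLVAP near BST2 (1.08) and a gene without a symbol near RTP4 (2.76). Those lower at 24 h were ABHD8 near BST2 (-0.66), ZC3HAV1L near ZC3HAV1 (-0.65) and BACE2 near MX2 (-0.39). TMPRSS2, 5337 bases from MX1, was not called at either time (log2 fold change -0.15 at 12 h and -0.14 at 24 h).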

How the data were processed

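RNA was extracted with TRIzol, and libraries were made with the NEBNext Ultra II RNA kit. The submitters' processing notes name HISAT2, featureCounts, DESeq2 and GRCh38/hg38, without versions or roles. The annotation and the use of strand are not given in the sources used here. The authors deposited raw counts of reads per Ensembl gene, as 1 table per library and a joint matrix whose columns were identical to them. Identifiers without version matched a symbol for 99.8% of the 35044 genes, and GENCODE 29 gave positions and exon lengths. The 10 genes and the gene lists were chosen with earlier results of these data known.

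Counts were tested with edgeR 4.0.16 in R 4.3.3 (TMM, filterByExpr, quasi-likelihood F test, 1 mean per group over all 18 libraries), and p-values were adjusted by the Benjamini-Hochberg method over 18335 genes. The procedure was tested on simulated data. Intervals of log2 fold changes are 1.96 SE, and those of count ratios are exact conditional intervals with a floor of 3 counts per group. The genes named were all 10, the 5 nearest in profile, the neighbours within 100 kb called in OE after olaparib, and up to 4 called genes per list with the largest change. At 15081973 to 17571922 counts per library, the 6 genes near 0 in EV had too few counts for a change to be read there. Alternatives were DESeq2 1.42.0 size factors and Wald test, no filter or at least 10 counts in every library, the compared groups alone, a replicate block, an offset for GC content and length, a log2 fold change over 1, and each library left out in turn. Promoter windows came from RefSeq (GRCh38.p14). The values of 2 listed genes are not reported here.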

Additional observations from a re-analysis of the deposited data

Results flagged for a closer look

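A test of the difference between the olaparib responses of OE and EV, an interaction contrast in edgeR's quasi-likelihood fit, gave 4 calls. The call of MX1 at 12 h is listed among them but is not read as a difference. The difference of the 24 h log2 fold changes, OE minus EV, was 1.52 for SAMD9 (adjusted p = 0.000602), 1.54 for SAMD9L (adjusted p = 0.00327) and 0.86 for ZC3HAV1 (adjusted p = 0.00287). Each had an adjusted p under 0.05 in all 8 alternative fits and in all 12 fits without 1 library. Over all fits the difference went down to 0.96 for SAMD9, 1.08 for SAMD9L and 0.60 for ZC3HAV1. The part of GC content in these differences was not tested. The 0.86 of ZC3HAV1 is under the threshold of a log2 fold change over 1, and so is the lowest value of SAMD9. The 12 h difference of MX1, 2.27 (adjusted p = 0.0303), came from a gene with 1 to 9 counts per EV library that passed the filter on low counts through OE. Its adjusted p was 0.104 with the compared groups alone and 0.0599 to 0.295 without any 1 of 5 libraries, and nothing is read from it. The identity of the EV population, which lacked EPCAM and KRT5, cannot be told apart from BRCA1 status in these values.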

How the results depend on the processing

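No called direction turned under any alternative. The count of the 10 genes called in OE was 7 to 8 at 12 h and 8 at 24 h with the other scaling, tests, offsets and left-out libraries, and 6 at each time with a log2 fold change over 1. Requiring at least 10 counts in every library left 4 genes to test, of which 2 and 3 were called in OE at 12 h and 24 h and 3, 4 and 4 against EV at 0 h, 12 h and 24 h. For 24 h against 12 h in OE, DESeq2, no filter and the GC and length offset each called 2 genes, the compared groups alone 4, and the stricter count minimum, the log2 fold change over 1 and each left-out library 0. In EV, no filter called 1 gene at 12 h, and the offset, with or without the block, and the log2 fold change over 1 called 0 at 24 h, where leaving out 1 library gave 0 to 1. For the 12 h difference of responses, DESeq2, no filter and the offset, with or without the block, each called 4, MX1 among them, the compared groups alone 0, and left-out libraries 0 to 4. Nothing is read from MX1 in these counts, and the causes of the shifts were not tested. The replicate numbers did not pair the libraries (r of same-numbered deviations -0.227 to 0.295), and the replicate block called 2 genes for that difference and changed no other count of the 10. Depth limits what can be said of the 6 genes near 0 in EV.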
